A study of Homo sapiens with 12 samples.

Results

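The proteasome genes of NCM460 cells, a human line described as normal colonic epithelium, were followed through 4 groups of 3 RNA-seq libraries. They were chosen by name and biotype, as every protein-coding gene whose symbol starts with PSMA, PSMB, PSMC, PSMD or PSME. This gave 44 of 58735 genes, of which 43 encode a subunit, a cap or an assembly chaperone of the proteasome. The remaining gene, PSMC3IP, is named after a partner of PSMC3 and encodes a recombination protein that is not part of the particle.

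The first group was kept in medium. The second received TNF-α, the third TNF-α together with 5-OH-TMT (bufotenidine in the labels, a quaternary trimethylated derivative of serotonin), and in the fourth HTRA2 was knocked down by siRNA and the cells received TNF-α. The cells of the other 3 groups are labelled wild type, all groups share 1 cell line, and 3 of the 4 groups share TNF-α. HTRA2 encodes a mitochondrial serine protease, which the study examined as the target of 5-OH-TMT. The labels give no dose or time for these libraries, do not say which HTRA2 siRNA was used, and name no control siRNA for the TNF-α libraries, so transfection and knockdown cannot be told apart. They also do not say that replicates came from separate cultures, and p-values then measure only the spread between these libraries.

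The proteasome is the protease of the cytosol and nucleus that degrades ubiquitin-tagged proteins. Its core is a barrel of outer alpha rings (PSMA genes) and inner beta rings (PSMB genes), and the catalytic sites lie on PSMB6, PSMB7 and PSMB5. The 19S cap unfolds substrates with a ring of ATPases (PSMC genes) and holds a base and a lid of further subunits (PSMD genes). Interferon and TNF are known to raise a second set of catalytic subunits, PSMB9, PSMB10 and PSMB8, which take the places of PSMB6, PSMB7 and PSMB5 in newly built cores to form the immunoproteasome. The same stimuli are known to raise PSME1 and PSME2, which form the PA28 cap, and both changes favour peptides that MHC class I molecules can present. In the text below, the immunoproteasome genes are these 5, and the constitutive genes are the 31 ubiquitously used subunits of the core and the 19S cap: PSMA1 to PSMA7, PSMB1 to PSMB7, PSMC1 to PSMC6, PSMD1 to PSMD4, PSMD6 to PSMD8 and PSMD11 to PSMD14.

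The start regions of the immunoproteasome genes are shown first, because all 5 genes lay above every TNF-α library both with 5-OH-TMT and in the knockdown, as 16.3% and 17.5% of all genes tested did. The windows are RefSeq sequence of GRCh38.p14, 84 bases before the annotated start and 16 from it, in the direction of the gene. Capitals mark a match to the interferon-stimulated response element (GAAA, then 2 bases of any kind, then GAAA) or to the gamma-activated site TTCNNNGAA, searched on both strands. PSMB8 lies on chromosome 6 at chr6:32844032-32844131 (minus strand, the window of its start nearer to the end of the gene), PSMB9 at chr6:32854108-32854207 (plus strand), PSMB10 at chr16:67936835-67936934 (minus strand), PSME1 at chr14:24136110-24136209 (plus strand) and PSME2 at chr14:24146595-24146694 (minus strand). PSMB5, the constitutive counterpart of PSMB8, is shown for comparison at chr14:23034885-23034984 (minus strand). The windows of the other starts of PSMB8 (chr6:32844664-32844763) and PSMB5 (chr14:23035205-23035304) held no match and are not shown.
PSMB8: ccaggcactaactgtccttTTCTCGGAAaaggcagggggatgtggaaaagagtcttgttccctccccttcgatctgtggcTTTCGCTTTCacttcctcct
PSMB9: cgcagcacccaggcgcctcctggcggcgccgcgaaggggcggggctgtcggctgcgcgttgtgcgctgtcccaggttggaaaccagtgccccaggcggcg
PSMB10: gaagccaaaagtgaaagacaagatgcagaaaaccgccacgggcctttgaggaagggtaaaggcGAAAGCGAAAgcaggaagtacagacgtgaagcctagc
PSME1: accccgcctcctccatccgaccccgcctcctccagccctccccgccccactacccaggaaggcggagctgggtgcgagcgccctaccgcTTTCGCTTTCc
PSME2: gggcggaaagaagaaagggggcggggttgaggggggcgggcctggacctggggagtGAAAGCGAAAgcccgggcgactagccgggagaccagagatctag
PSMB5: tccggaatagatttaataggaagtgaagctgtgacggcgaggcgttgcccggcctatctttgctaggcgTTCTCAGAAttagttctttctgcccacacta

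Over the full RefSeq windows, 250 bases before to 50 after each start, the response element was found in 4 of the 5 immunoproteasome genes and in 2 of the 26 constitutive genes that had an entry, PSMA4 and PSMB4. It was found in 3.57% of all 35116 promoters. In the order PSMB8, PSMB10, PSME1 and PSME2 its first base lay at −4, −21, +6 and −28 from the start, and in each of these it held the same 10 letters on one strand or the other. The PSMB9 window held no match to these letters. The gamma-activated site was found in 1 of the 5 (PSMB8, at −65) and in 5 of the 26, against 7.66% of all promoters. The core of the antioxidant response element, TGACNNNGC, was found in 3 of the 5 (PSMB9, PSME1 and PSME2) and in 7 of the 26, against 13.3% of all promoters. PSMB6 and PSMB7 had no entry. PSMB5 and PSMB8 each had windows for a pair of starts and were counted once. These are matches of letters and were not tested for binding.

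The libraries held 31008429 to 37624399 reads on genes. In the knockdown libraries HTRA2 stood at 7.44, 7.18 and 7.22 FPKM against 15.4, 13.96 and 14.2 with TNF-α alone, so every knockdown library lay below every TNF-α library. Library 2 of the knockdown stood apart from the others of its group. Chi-squared between read counts, divided by its degrees of freedom, was 35.0 and 45.4 for pairs with this library and 7.35 for the pair without it, and library 2 had 2.95% of reads on mitochondrial genes against 4.21% and 4.50%. The epithelial markers KRT8, KRT18, EPCAM and CDH1 were abundant in all groups, whereas the colonic markers KRT20, CDX2, VIL1 and LGALS4 were at or near 0. KRT19, also epithelial, was low, at 1.91 to 4.36 FPKM. The summed FPKM of 6 leukocyte markers was 0.231 to 0.524 in medium and 0.118 to 0.274 under TNF-α alone. It was 0.320 to 0.454 with added 5-OH-TMT and 0.421 to 0.885 in the knockdown. CD14 made up most of this sum except in TNF-α library 2. There CD14, at 0.0680 FPKM, lay below CD68 at 0.0879 and ITGAM at 0.0733. PTPRC and CD3E were at or near 0 throughout. The sum of 5 fibroblast markers, nearly all of it COL1A1, was 1.02 to 1.13 in medium, 1 to 1.32 under TNF-α alone, 1.15 to 1.46 with added 5-OH-TMT and 2.60 to 3.24 in the knockdown. The sum of 3 endothelial markers, mostly CDH5, was 0.491 to 0.597 in medium, 1.42 to 1.57 under TNF-α alone, 1.77 to 2.01 with added 5-OH-TMT and 2.21 to 3.62 in the knockdown. In bulk RNA, fewer cells of a type and less RNA per cell cannot be told apart.

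Levels are given as FPKM, fragments scaled to the length of the gene and the reads of the library, so they are compared per length. In medium, the proteasome genes ranged from 443 ± 30.6 FPKM (SD, n = 3) for PSMA7, an alpha ring subunit, to 0.309 ± 0.0800 for PSMA2, another one. The 3 constitutive catalytic subunits were among the highest, with PSMB6 at 286 ± 23.5, PSMB7 at 283 ± 23.6 and PSMB5 at 208 ± 20.7 FPKM. PSMB6 and PSMB7 did not differ beyond their spread. The immunoproteasome subunits in medium lay far below them, with PSMB8 at 29.9 ± 2.93, PSMB10 at 8.49 ± 0.979 and PSMB9 at 8.12 ± 0.461 FPKM, and the levels of PSMB10 and PSMB9 overlapped. PSME1 stood at 117 ± 10.4 and PSME2 at 39.4 ± 1.83 FPKM. By role, the median level in medium was 41.7 FPKM for the 7 alpha subunits, 162 for the 4 beta subunits without catalytic activity, 40.7 for the 6 ATPases and 42 for the 8 lid subunits. PSMC3IP, the gene outside the particle, stood at 3.64 FPKM in medium and did not pass the test in any comparison. PSMA8, the testis form of an alpha subunit, and PSMB11, the catalytic subunit of the thymus, were listed at 0 in all 12 libraries, and the other 42 genes passed the filter on low values.

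**Figure D1:**
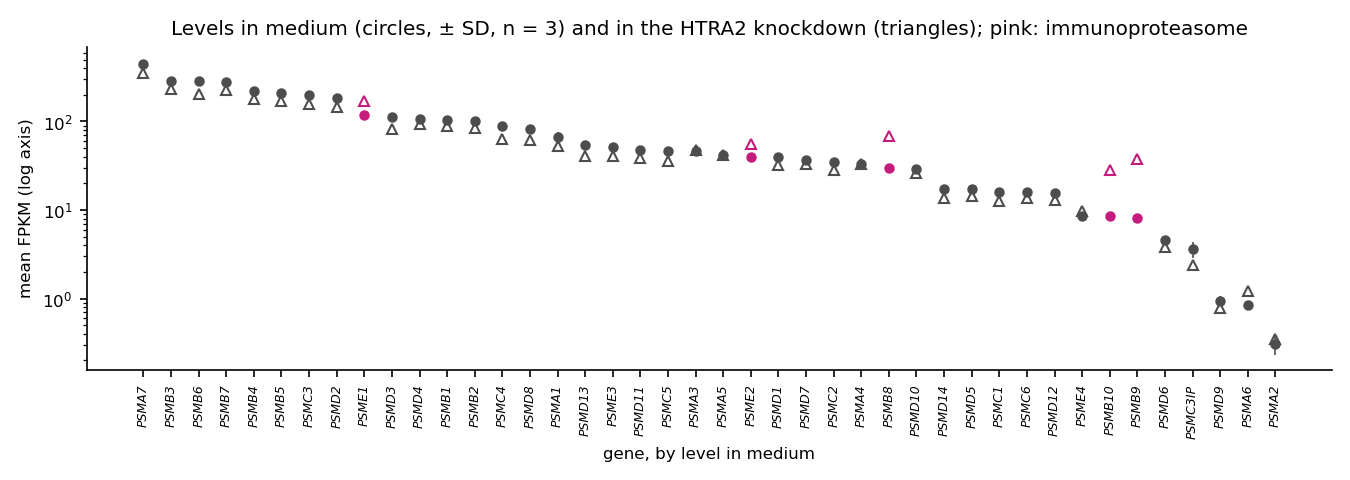
Mean FPKM (log axis) of the 42 proteasome genes above 0, ordered by their level in medium, with circles for medium (± SD, n = 3) and triangles for the HTRA2 knockdown under TNF-α, and pink for the immunoproteasome. The 5 pink triangles lie above their circles, most of all PSMB9 (8.12 and 37.9 FPKM) and PSMB10 (8.49 and 28.4 FPKM).

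Some levels are uncertain because genes overlap and neither the strand nor the treatment of shared reads is given in the sources used here. Same-strand read-through genes cover 97.1% of the coding bases of PSMA2, 88.6% of PSMA1, 70.4% of PSMA6, 58.7% of PSMD9 and 58.3% of PSMB10. PSMA2, PSMA6 and PSMD9 were the lowest of the expressed genes, at 0.309, 0.853 and 0.943 FPKM in medium, although alpha subunits are built into the particle in equal numbers. PSMA2 had 42 to 88 reads a library against 21163 to 28858 for PSMA7. The read-through genes that cover PSMA1, PSMA2, PSMA6 and PSMD9 were themselves at no more than 0.0596 FPKM in any library (WDR66, which also overlaps PSMD9, aside), and that of PSMB10 was at 0.0613 to 0.254. On the opposite strand, NRDE2 covers 75.8% of the exon bases of PSMC1, and PSMB8-AS1 and PSMB9 together cover 20.6% of those of PSMB8. PSMB8 in turn covers 4.52% of those of PSMB9. The annotated span of PSMB9 (chromosome 6, 32844136 to 32859585) contains TAP1 (32845209 to 32853978) on the other strand, but their exons do not overlap. The 32 pseudogenes named after proteasome genes held 0.0745% to 0.116% as many reads as the 44 genes.

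The immunoproteasome subunits were at their lowest in medium and at their highest in the knockdown, with TNF-α alone and then added 5-OH-TMT between them. PSMB9, the immuno-form of the subunit that cuts after acidic residues, measured 7.63, 8.54 and 8.202 FPKM in medium, 18.2, 14.1 and 18.2 under TNF-α alone, 27.0, 23.4 and 24.9 with added 5-OH-TMT, and 38.2, 37.2 and 38.1 in the knockdown. PSMB10, the immuno-form of the trypsin-like subunit, measured 7.99, 9.62 and 7.86, then 13.1, 12.3 and 11.5, then 18.3, 16.8 and 18.1, and 29.7, 25.5 and 30.1 FPKM in the same order. PSMB8, the immuno-form of the chymotrypsin-like subunit, measured 28.7, 33.3 and 27.8, then 41.7, 38.9 and 45.0, then 53.4, 52.8 and 52.5, and 68.1, 65.0 and 71.9 FPKM. For each of these 3 genes no library of a group overlapped with any library of the next, where 11.1%, 16.3% and 18.2% of all genes tested lay wholly higher at the same steps.

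The PA28 genes moved over a narrower range. PSME1 measured 111, 129 and 110 FPKM in medium, 131, 129 and 133 under TNF-α alone, 159, 144 and 154 with added 5-OH-TMT, and 158, 173 and 174 in the knockdown. PSME2 measured 37.4, 41.0 and 39.8, then 47.0, 42.4 and 46.7, then 52.1, 52.4 and 54.4, and 56.7, 52.3 and 59.6 FPKM. In both genes the 5-OH-TMT and knockdown libraries overlapped, and the groups before them in that order did not. At those steps, 11.1% (TNF-α against medium) and 16.3% (5-OH-TMT against TNF-α) of all genes tested lay wholly higher. For PSME1 the highest medium library, at 128.82 FPKM, was barely below the lowest TNF-α library, at 128.96. PSME3, which forms the related nuclear cap, measured 54.3, 52.4 and 49.0, then 51.3, 59.8 and 49.9, then 46.7, 55.8 and 49.7, and 38.5, 38.0 and 45.0 FPKM, with only the knockdown set apart from the other groups. PSME4, the large PA200 cap, stayed between 7.54 and 10.6 FPKM in all 12 libraries.

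**Figure D2:**
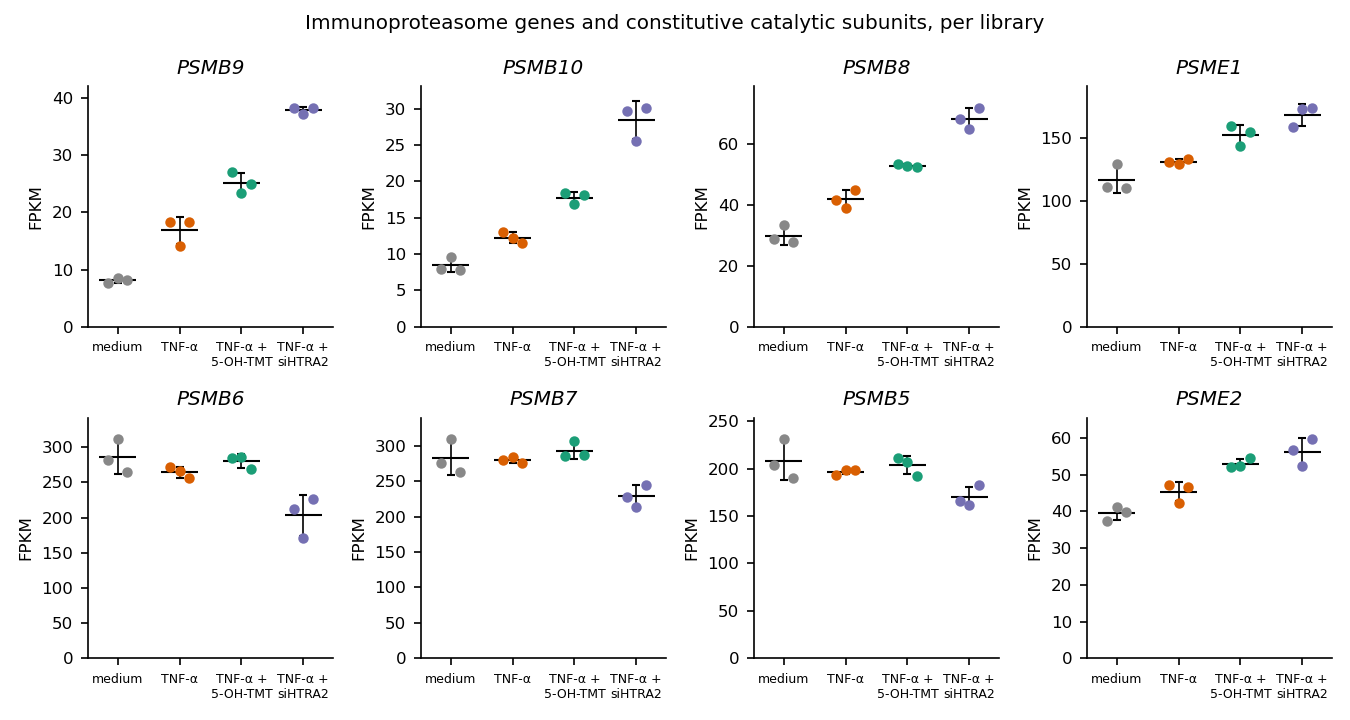
FPKM per library of the 5 immunoproteasome genes and of PSMB6, PSMB7 and PSMB5, which PSMB9, PSMB10 and PSMB8 replace; bars are the group mean ± SD (n = 3). PSMB9 goes from 7.63 to 8.54 FPKM in medium to 37.2 to 38.2 in the knockdown, while PSMB6 goes from 265 to 311 down to 170 to 227.

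Against their constitutive counterparts the immuno-subunits remained the minority in every library. PSMB9 was 2.85% ± 0.214 (SD, n = 3) of the PSMB6 level in medium, 6.38% ± 0.954 under TNF-α alone, 8.98% ± 0.711 with added 5-OH-TMT and 18.9% ± 2.64 in the knockdown. PSMB10 was 3.00% ± 0.110 of PSMB7, then 4.39% ± 0.265, 6.07% ± 0.509 and 12.4% ± 0.563. PSMB8 was 14.4% ± 0.272 of PSMB5, then 21.3% ± 1.55, 26.0% ± 1.12 and 40.2% ± 0.826. No library of a group overlapped with a library of the next in any of these ratios. Of the summed FPKM of the 6 catalytic genes, the immuno-forms took 5.66% ± 0.134 in medium and 8.74% ± 0.649 under TNF-α alone. They took 10.98% ± 0.5 once 5-OH-TMT was added, and 18.3% ± 0.650 in the knockdown. These are shares of RNA and say nothing of assembled particles. Their size depends on the annotated lengths by which FPKM divides. These were 3072 bases for PSMB9 and 1448 for PSMB6, 1853 for PSMB10 and 1787 for PSMB7, and 2997 for PSMB8 and 1765 for PSMB5. In knockdown library 1, PSMB9 had 4235 reads and PSMB6 11101, and PSMB8 had 7365 and PSMB5 10563.

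An index was also formed as the mean log2(FPKM + 0.1) of the 5 immunoproteasome genes minus that of the 31 constitutive genes. It is a description of chosen genes and was not tested. It was −1.10, −0.88 and −1.02 in medium, −0.51, −0.65 and −0.47 under TNF-α alone, −0.04, −0.18 and −0.07 with added 5-OH-TMT, and 0.53, 0.43 and 0.48 in the knockdown. The groups did not overlap. The step from medium to TNF-α was 0.46, that from TNF-α to 5-OH-TMT 0.45 and that from TNF-α to the knockdown 1.02, with a pooled SD within groups of 0.0841. The mean of the constitutive genes was 5.64 ± 0.0282 in medium, 5.67 ± 0.0234 under TNF-α alone, 5.60 ± 0.0243 with added 5-OH-TMT and 5.40 ± 0.0535 in the knockdown, so in the knockdown both terms of the index moved.

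**Figure D3:**
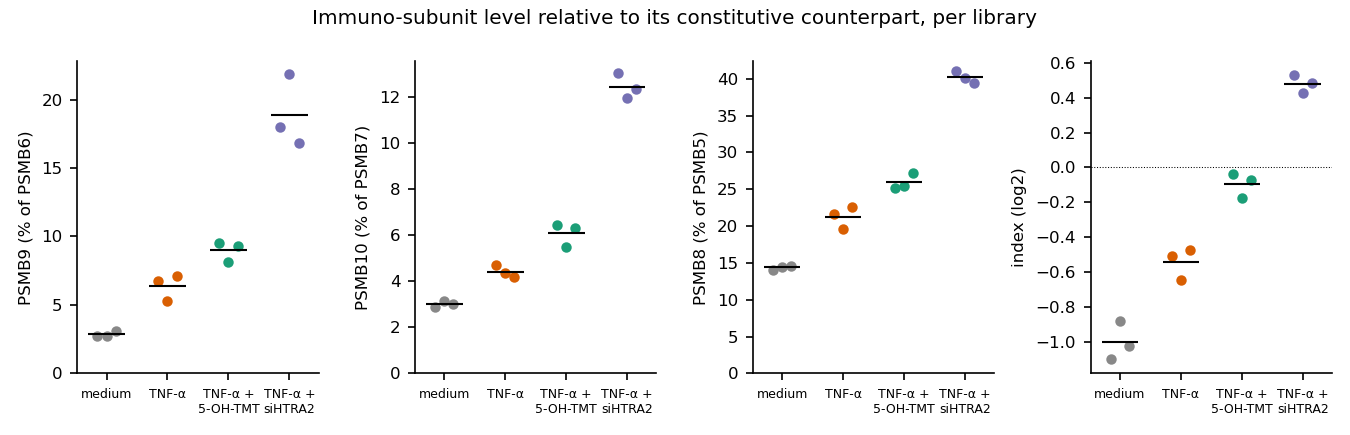
Per library, PSMB9 as a percent of PSMB6, PSMB10 of PSMB7 and PSMB8 of PSMB5, and the index (log2, immunoproteasome minus constitutive genes); bars are group means (n = 3). Each of the 4 measures is lowest in the 3 medium libraries and highest in the 3 knockdown libraries, and the index is above 0 in the knockdown libraries only (0.43 to 0.53).

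TNF-α against medium asked which proteasome genes respond to the cytokine. The catalytic immuno-subunits rose and no constitutive gene was called. PSMB9 rose 2.08-fold (log2 fold change 1.03 ± 0.0963, standard error, limma adjusted p = 4.87e-05), PSMB10 1.45-fold (0.53 ± 0.0938, adjusted p = 0.00583) and PSMB8 1.40-fold (0.48 ± 0.0780, adjusted p = 0.00312). Of the 42 genes tested these 3 were called higher, at an adjusted p under 0.05, and 0 lower, where 4.10% of all 18079 genes tested were called, 3.22% higher and 0.885% lower. PSME1, at a log2 fold change of 0.17 ± 0.0729 (adjusted p = 0.293), and PSME2, at 0.20 ± 0.0671 (adjusted p = 0.144), did not pass the test, although every TNF-α library of both lay above every medium library, as 11.1% of all genes did. PSMB9 alone also met the fold of at least 2 and unadjusted p of at most 0.05 by which the study defines a DEG, as 2.73% of all genes did.

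The constitutive genes in this comparison ranged from a log2 fold change of −0.17 to one of 0.34, with a median of 0.01, against −0.00 over all genes tested. The 3 catalytic ones were at −0.08 (PSMB5), −0.11 (PSMB6) and −0.01 (PSMB7), with adjusted p of 0.737, 0.695 and 0.966. PSME3 was at 0.05 and PSME4 at 0.13, and neither passed the test. An exact two-sided permutation test of 3 libraries against 3 cannot go below p = 0.1, and gave that value for each gene whose groups did not overlap. Fitted to the 6 libraries alone, PSMB9 was the only proteasome gene called, with PSMB8 at an adjusted p of 0.0581 and PSMB10 at 0.0571. Of all genes, 392 were called in that fit, against 742 in the fit reported. The endothelial marker sum given above was also higher with TNF-α, and its part in these changes was not tested.

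The addition of 5-OH-TMT to TNF-α was compared with TNF-α alone to ask what the compound adds. By the adjusted p, 0 of the 42 genes were called, where 0.0387% of all genes tested were, 0.0332% higher and 0.00553% lower, and 0 met the fold of at least 2 and unadjusted p of at most 0.05, as 1.50% of all genes did. By the unadjusted p under 0.05 there were 18 of 42 (42.9%), where 20.1% of all genes passed, and these were all 5 immunoproteasome genes on the higher side and 13 genes on the lower side, of which 10 were constitutive and 3 were PSMD5, PSMD10 and PSME4. PSMB9 was 1.49-fold higher (log2 fold change 0.58 ± 0.0963, limma adjusted p = 0.0531), PSMB10 1.45-fold (0.53 ± 0.0938, adjusted p = 0.0630) and PSMB8 1.26-fold (0.34 ± 0.0780, adjusted p = 0.0921). PSME1 at 0.22 ± 0.0729 and PSME2 at 0.22 ± 0.0671 had adjusted p of 0.143 and 0.122. In all 5 genes the lowest 5-OH-TMT library exceeded the highest TNF-α library, which held for 16.3% of all genes. The leukocyte and endothelial marker sums given above were also higher with 5-OH-TMT than with TNF-α alone, without overlap, and their part in these values was not tested.

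Whether the catalytic immuno-subunits passed the threshold depended on the fit. With genes filtered at a mean FPKM of at least 1, PSMB9 (adjusted p = 0.0278) and PSMB10 (adjusted p = 0.0322) were called with limma. With voom on reads recovered from the FPKM they were called as well, at 0.0235 and 0.0283. In a fit of the 6 libraries alone all 3 were called, PSMB8 at 0.0423, and 8 proteasome genes were called lower. These fits also called more of all genes, where the fit reported called 7. There were 127 with the filter at 1, 236 with voom, and 911 with the 6 libraries alone (473 higher and 438 lower).

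The constitutive genes did not move as a block with 5-OH-TMT. Their median log2 fold change was −0.01, and 11 of 31 lay below every TNF-α library (15.5% of all genes tested did) while 4 lay above (16.3% did). All 10 at an unadjusted p under 0.05 were lower, which is 32.3% of the 31 against 10.5% of all genes tested. They included the base scaffold subunit PSMD1 (45.5, 43.1 and 42.9 FPKM with TNF-α, 34.0, 35.1 and 34.6 with 5-OH-TMT, log2 fold change −0.34, adjusted p = 0.0754) and PSMA1 (65.1, 71.8 and 78.4, then 50.7, 56.0 and 52.9 FPKM, log2 fold change −0.43, adjusted p = 0.128). PSMC1 and PSMC6, ATPases of the base, were at −0.29 and −0.32, and PSMD14, the deubiquitinating enzyme of the lid, at −0.27. PSMB5, PSMB6 and PSMB7 were at 0.05, 0.08 and 0.07, with adjusted p of 0.760, 0.676 and 0.636, and PSME3 and PSME4 at −0.08 and −0.20.

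**Figure D4:**
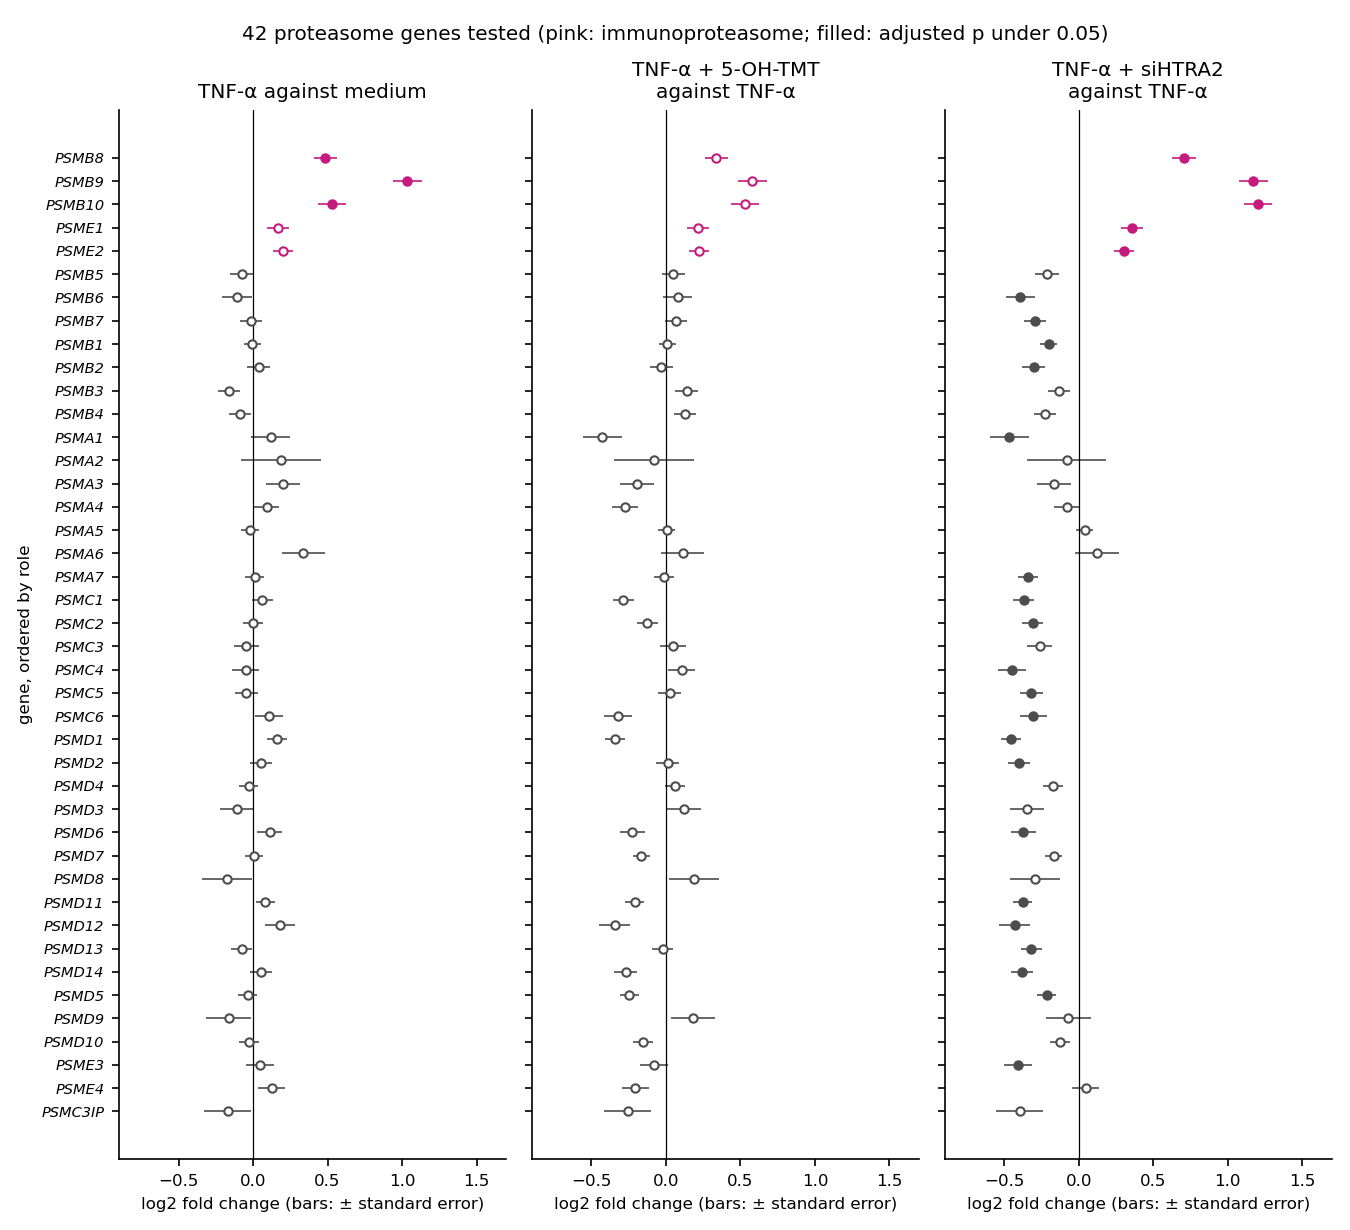
Log2 fold change ± standard error of the 42 tested proteasome genes in 3 comparisons, ordered by role, with pink for the immunoproteasome and filled points for an adjusted p under 0.05 (limma). In the knockdown the 5 pink points lie at 0.31 to 1.20 and the 31 constitutive genes at −0.47 to 0.12; with TNF-α against medium 3 points are filled, and with 5-OH-TMT 0.

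The HTRA2 knockdown was compared with TNF-α alone, and the proteasome genes separated by kind. With no control siRNA named, transfection and reduced HTRA2 cannot be told apart in this comparison. This comparison and the preceding pair share the TNF-α libraries, so their values are only set side by side. All 5 immunoproteasome genes rose and 18 of the 31 constitutive genes fell. In all, 25 of 42 were called (59.5%), 5 higher and 20 lower, where 17.4% of all genes tested were called, 9.35% higher and 8.08% lower. PSMB10 rose 2.32-fold (log2 fold change 1.20 ± 0.0938, limma adjusted p = 1.48e-05), PSMB9 2.25-fold (1.17 ± 0.0963, adjusted p = 1.78e-05) and PSMB8 1.63-fold (0.71 ± 0.0780, adjusted p = 0.000109). PSME1 rose 1.29-fold (0.36 ± 0.0729, adjusted p = 0.00528) and PSME2 1.24-fold (0.31 ± 0.0671, adjusted p = 0.00814). PSMB9 and PSMB10 met the fold of at least 2 and unadjusted p of at most 0.05, as 4.23% of all genes did.

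The falls of the constitutive genes were shallow and touched every part of the particle, the alpha ring least. The median log2 fold change was −0.08 for the 7 alpha subunits. It was −0.21 for the beta subunits without activity and −0.29 for the constitutive catalytic ones. For the ATPases it was −0.31, for the lid −0.36 and for the non-ATPase base subunits −0.40. The median log2 fold change of the 31 was −0.30, against −0.00 over all genes tested, and 24 of 31 lay below every TNF-α library, as 16.4% of all genes did. Of the 6 ATPases 5 fell (PSMC1, PSMC2, PSMC4, PSMC5 and PSMC6), and of the 8 lid subunits 5 (PSMD6, PSMD11, PSMD12, PSMD13 and PSMD14). Of the 3 non-ATPase base subunits PSMD1 and PSMD2 fell, and of the 7 alpha subunits PSMA7 and PSMA1. Of the 7 constitutive beta subunits 4 fell: PSMB1, PSMB2, PSMB6 and PSMB7. None of the 31 rose by the test, and PSMA5 at 0.04 and PSMA6 at 0.12 had a positive log2 fold change.

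By the rule for naming, the largest falls among those called were PSMA1, PSMD1 and PSMC4. PSMC4, an ATPase of the base, measured 83.3, 92.9 and 81.2 FPKM with TNF-α and 60.7, 57.7 and 70.6 in the knockdown (log2 fold change −0.45 ± 0.0913, adjusted p = 0.00550). PSMD1 measured 30.4, 34.2 and 31.4 in the knockdown (−0.45 ± 0.0661, adjusted p = 0.000690), and PSMA1 43.4, 61.8 and 51.8 (−0.47 ± 0.131, adjusted p = 0.0295). The highest PSMA1 value in the knockdown, that of library 2, was still below the lowest TNF-α value of 65.1, and the read-through overlap given above applies to it. The call of PSMA1 was lost in 7 of 16 alternative fits, at adjusted p from 0.0620 to 0.122, among them those without library 2 or 3 of TNF-α and without library 1 or 3 of the knockdown. Those of PSMC4 and PSMD1 were kept in all 16.

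Of the catalytic counterparts, PSMB6 measured 271, 267 and 256 FPKM with TNF-α and 213, 170 and 227 in the knockdown (log2 fold change −0.39 ± 0.0984, adjusted p = 0.0170). PSMB7 measured 279, 283 and 276, then 228, 214 and 245 (−0.29 ± 0.0741, adjusted p = 0.0183). PSMB5 measured 193, 198 and 199, then 166, 162 and 182 (−0.21 ± 0.0779, adjusted p = 0.0830). All 3 lay below every TNF-α library and PSMB5 did not pass the test. The call of PSMB6 was lost in 3 of 16 alternative fits. These were the fits without library 1 (adjusted p = 0.0571) or 2 (0.0566) of TNF-α, and a fit that left no library out (0.0740). That of PSMB7 was lost in 4 of 16. These were the fits without the same libraries (0.0527 and 0.0636) or library 1 of the knockdown (0.0590), and a fit that left no library out (0.0507). PSME3 fell (−0.41 ± 0.0942, adjusted p = 0.0113, but 0.0535 without library 2 of TNF-α and 0.0519 without library 1 of the knockdown), as did PSMD5, an assembly chaperone of the base (−0.21 ± 0.0653, adjusted p = 0.0415). PSME4 was at 0.05 (adjusted p = 0.768), and the other base chaperones, PSMD9 and PSMD10, did not pass the test.

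Without library 2 of the knockdown, which stood apart, 25 genes were again called, 5 higher and 20 lower. Without library 2 of TNF-α the count was 16, 5 higher and 11 lower. Of all genes, 3337 and 2062 were called in these fits, against 3152 in the fit reported. Fibroblast, endothelial and leukocyte marker sums were higher in the knockdown than with TNF-α alone, as given above, and CD14 was called higher (0.0946 and 0.443 FPKM, log2 fold change 1.42, adjusted p = 0.0163). Of the epithelial markers, CDH1 (0.40, limma adjusted p = 0.00108) and KRT19 (0.77, adjusted p = 0.00440) were also called higher, and KRT8, KRT18 and EPCAM were not called. The part of these markers in the changes was not tested.

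The knockdown was also compared directly with 5-OH-TMT, both under TNF-α, which tests the difference between them. Transfection and reduced HTRA2 cannot be told apart here either. The 3 catalytic immuno-subunits were higher in the knockdown: PSMB10 1.60-fold (log2 fold change 0.67 ± 0.0938, limma adjusted p = 0.000860), PSMB9 1.51-fold (0.59 ± 0.0963, adjusted p = 0.00223) and PSMB8 1.29-fold (0.37 ± 0.0780, adjusted p = 0.00952). PSME1, at 0.14 ± 0.0729 (adjusted p = 0.218), and PSME2, at 0.08 ± 0.0671 (adjusted p = 0.445), did not pass the test. Of the 42 genes 3 were called higher and 16 lower (19 in all), where 15.3% of all genes tested were called, 7.85% higher and 7.43% lower. None met the fold of at least 2 and unadjusted p of at most 0.05 (0 of 42), as 3.19% of all genes did.

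The 16 lower genes were PSME3 and 15 of the 31 constitutive genes, whose median was −0.21. In this fit they held all 7 constitutive beta subunits, among them PSMB6 (−0.47 ± 0.0984, adjusted p = 0.00871), PSMB7 (−0.36, adjusted p = 0.00835) and PSMB5 (−0.26, adjusted p = 0.0425). They also held PSMA7, the ATPases PSMC3, PSMC4 and PSMC5, the base subunits PSMD2 and PSMD4, and the lid subunits PSMD3 and PSMD13. The largest falls among those called were PSMC4 at −0.56 (adjusted p = 0.00242), PSMD3, a lid subunit, at −0.47 (adjusted p = 0.0178), and PSMB6. The call of PSMB5 was lost in 9 of 16 alternative fits, at adjusted p from 0.0524 to 0.142, and in each fit without 1 library except that without library 3 of the knockdown. The call of PSMD3 was lost in 4 of 16. PSMD3 was at 0.0545 without library 1 and 0.0656 without library 2 of 5-OH-TMT, and at 0.0501 without library 2 of the knockdown. In a fit that left no library out it was at 0.0527. PSME3 was at −0.32 (adjusted p = 0.0381), a call lost in 9 of 16 alternative fits and in the same leave-out fits as PSMB5, and PSME4 at 0.25 (adjusted p = 0.0825). PSMD1 and PSMA1 differed by −0.11 (adjusted p = 0.286) and −0.04 (adjusted p = 0.890) between the knockdown and 5-OH-TMT. The count fell to 10 without library 1 or library 2 of 5-OH-TMT and to 11 without library 1 or library 2 of the knockdown, with the 3 immuno-subunits called in each of these fits. The calls over all genes fell as well, from 2762 to 1416, 1314, 1757 and 1770 in the same order. Fibroblast and endothelial marker sums were also higher in the knockdown than with 5-OH-TMT, without overlap, and their part in these differences was not tested.

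Genes that build, serve or control the proteasome were read from a list of 28. With TNF-α 1 of them rose (3.57%, where 3.22% of all genes tested did) and 0 fell. It was UBE3C, a ubiquitin ligase that binds the proteasome (log2 fold change 0.30, adjusted p = 0.0426). With 5-OH-TMT 0 of the 28 were called. In the knockdown 1 rose (3.57%, where 9.35% of all genes did) and 3 fell (10.7%, where 8.08% did), so the falls were near the share over all genes. The one that rose was NFE2L1, the transcription factor known to raise proteasome genes when the proteasome is impaired (38.6, 39.5 and 35.4 FPKM with TNF-α, 44.8, 41.4 and 48.8 in the knockdown, log2 fold change 0.25, adjusted p = 0.0377). Those that fell were TXNL1, a thioredoxin bound to the 19S cap (−0.39, adjusted p = 0.0210), the deubiquitinating enzyme USP14 (−0.30, adjusted p = 0.0364) and UBE3C (−0.24, adjusted p = 0.0431).

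POMP, the chaperone needed to finish the core, was at −0.14 in the knockdown (adjusted p = 0.246), and 0 of the 6 assembly genes were called there. Against 5-OH-TMT the knockdown was lower in 4 of the 28 (14.3%, where 7.43% of all genes were) and higher in 0 (where 7.85% were). These were ADRM1, a ubiquitin receptor of the base (−0.73, adjusted p = 0.0101), PSMF1, a proteasome inhibitor in vitro (−0.39, adjusted p = 0.0492), the assembly chaperone PSMG3 (−0.33, adjusted p = 0.0184) and the ubiquitin shuttle UBQLN4 (−0.31, adjusted p = 0.0433). ADRM1 stood at 135 FPKM under TNF-α alone, 159 with added 5-OH-TMT and 97.8 in the knockdown. In ADRM1, PSMF1, PSMG3 and UBQLN4 the lowest knockdown value was that of library 2, which stood apart. For ADRM1 it was 73.0 FPKM, against 103 and 117 in libraries 1 and 3. How these calls hold with libraries left out was not examined.

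Of 9 genes known to act beside the immunoproteasome in interferon signalling and class I presentation, 6 rose with TNF-α, 0 were called with 5-OH-TMT, and 8 rose in the knockdown against TNF-α, where 3.22%, 0.0332% and 9.35% of all genes tested were called higher. TAP1, the peptide transporter gene that lies within the PSMB9 span, stood at 13.1 FPKM in medium, 29.1 under TNF-α alone, 38.9 with added 5-OH-TMT and 58.7 in the knockdown.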

How the data were processed

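Poly(A)-selected libraries of NCM460 cells were sequenced, and the authors deposited FPKM values of each gene in every library, beside gene lengths. The submitters' processing notes name CASAVA 1.8, HISAT2 2.0.4, HTSeq 0.9.1 and hg38; strandedness and the handling of reads shared between genes are not given in the sources used here. Gene positions of 99.9% of genes were the same as in GENCODE 29. Multiplying FPKM by length and a step per library gave whole reads (within 0.05) for 100% of values.

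Groups were taken from the labels. Values were taken as log2(FPKM + 0.1). Genes averaging 0.1 FPKM or more across the 12 libraries, 18079 in number, entered a linear model that gave each group its own mean (limma 3.58.1, R 4.3.3, eBayes with trend, 8 residual degrees of freedom). The 4 contrasts were tested, two-sided, with Benjamini-Hochberg adjustment over all genes tested, and genes were called at an adjusted p under 0.05. Fold changes of low genes are understated by the pseudocount. The fit was tested on simulated data.

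Named are the 5 immunoproteasome genes with PSMB5, PSMB6, PSMB7, PSME3 and PSME4 in each comparison, the 3 largest rises and falls among genes called in it, genes at the ends of the range of levels or near 0, and up to 3 genes of the pathway list per direction. Others were named after their values were seen. Members and lists were chosen with earlier results of these data known. Protein sequences were not used here, and 1 marker gene of the leukocyte list is not reported here.

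The alternatives were other pseudocounts, filters and scalings, fits of the compared groups alone, eBayes without trend, a replicate term, each library left out, and voom, added after seeing the data.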

Additional observations from a re-analysis of the deposited data

How the results depend on the processing

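Over all alternatives and left-out libraries, the log2 fold changes of the named genes gave 665 results with the same direction and side of the threshold, 41 that lost the threshold, 10 that gained it and 4 that changed sign. None of the 4 passed the threshold in either fit. With TNF-α, PSMB7 was at 0.0575 with quantile normalization and ranged from −0.0629 to 0.0530 with libraries left out in turn (above 0 without medium library 2), and PSME3 from −0.0347 (without TNF-α library 2) to 0.0957. In the knockdown against TNF-α, PSME4 ranged from −0.0167 (without knockdown library 2) to 0.0977. The 5 immunoproteasome genes were called in the knockdown against TNF-α in every fit run. Proteasome genes called with TNF-α numbered 1 when only the groups compared were fitted. With 5-OH-TMT they numbered 3 with the filter at a mean FPKM of 1, 11 when only the groups compared were fitted and 3 with voom. For the knockdown against 5-OH-TMT they numbered 10 with only the groups compared, 12 with eBayes without trend and 12 with the replicate block. With libraries left out in turn, the counts ranged from 16 to 25 for the knockdown against TNF-α and from 10 to 19 against 5-OH-TMT. The index difference was 0.749 for TNF-α and 1.33 for the knockdown with the 3 catalytic pairs alone and 0.778 for the knockdown with medians; against 5-OH-TMT it was 0.908 and 0.329. Over all genes, called genes ranged from 392 to 862 with TNF-α (742 in the fit reported), 1 to 911 with 5-OH-TMT (7), 2222 to 3686 in the knockdown (3152) and 1930 to 3363 against 5-OH-TMT (2762), and without 1 library from 526 to 645, 1 to 5, 2015 to 3337 and 1314 to 2706. The cause of these shifts was not tested.

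Samples with the same number shared only that number: their deviations correlated at −0.212 to 0.151, and each sample correlated best with its own number only between medium and TNF-α. With the replicate block 3, 0, 22 and 12 proteasome genes were called in the 4 comparisons, and 600, 1, 2660 and 2062 of all genes. No scaling moved the median of all genes by over 0.1 on the log2 scale. The count test planned for the recovered reads was not run and voom took its place, calling 862, 236, 3686 and 3363 of all genes in the 4 comparisons. Low read counts limit PSMA2 (42 to 88 reads a library).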
